A study of Mus musculus with 6 samples.

Results

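The 8 genes described here encode proteins that start, carry out or restrain apoptosis. Casp8, Casp9 and Casp2 encode initiator caspases, Casp6 encodes an effector caspase, Apaf1 encodes the scaffold of the apoptosome, and Xiap, Birc2 and Birc3 encode inhibitors of apoptosis (IAPs). They were chosen by symbol, out of 56748 genes in the files, and all 8 passed the filter that left 11118 genes for testing. The cells were 4T1, a line from a mouse mammary carcinoma that is labelled wild type, with 3 control and 3 treated libraries. Treated cells grew for 24 h, were given Au/MoS2/Bi2S3 particles at 125 µg/mL overnight, received near-infrared (NIR) light for 8 min and were washed 24 h later. For treatment, control cells are labelled only as the control group, and both groups are labelled as collected at 48 h. Cells given particles alone or light alone were not analysed here, so the parts of the treatment cannot be told apart. The study's text speaks of pooled RNA from cells of 3 individuals, and nothing says that libraries of the same treatment were separate cultures. A p-value here thus measures only how far these libraries spread, and that spread may be technical.

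Caspases are proteases that cells make as inactive precursors and switch on by cutting or by bringing them together. Death receptors at the cell surface activate the Casp8 product, whereas cytochrome c released from mitochondria makes the Apaf1 product assemble into the apoptosome, which activates the Casp9 product. The IAP encoded by Xiap binds and blocks active caspases, while those encoded by Birc2 and Birc3 (also called cIAPs) are mainly ubiquitin ligases at the tumour necrosis factor receptor, where they also hold the noncanonical NF-kB pathway in check. Much of this control acts on proteins, which RNA levels do not show.

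The libraries held 32.6 to 38.1 M reads at genes in controls (M, 1e6) and 33.2 to 33.8 M in treated cells, worked back from the deposited FPKM (fragments per kilobase of exon, scaled for sequencing depth). Controls varied more, with a median SD between libraries of 0.268 on the log2 scale against 0.0712 in treated cells. Between 15829 and 18988 genes were above 0 in controls and between 21821 and 22088 in treated cells, and the 100 most abundant genes held 33.0 to 36.1% and 19.0 to 19.4% of reads. Mitochondrial genes held 0.0421 to 0.854% of reads in controls and 1.29 to 1.40% in treated cells, with no overlap. Control 3 was at the extreme of all 3 measures. It had the fewest genes above 0 (15829), the largest share in the top 100 (36.1%) and the smallest mitochondrial share (0.0421%). Of 7 epithelial markers, 3 reached 1 FPKM in a library. The keratin genes Krt8 and Krt18 stood at 345 to 493 and 272 to 973 FPKM, whereas Cdh1, which encodes E-cadherin, did not exceed 0.0989 FPKM. Summed epithelial markers stood at 1238 to 1472 FPKM in controls and 617 to 650 in treated cells, with Epcam at 4.43 to 5.74 and 0.760 to 0.968 FPKM. Of 5 fibroblast markers 2 reached 1 FPKM, Col3a1 at 90.2 to 411 FPKM in controls and 20.8 to 22.1 in treated cells, and Pdgfra at 1.01 to 1.29 and 1.18 to 1.26, and their list summed to 91.4 to 412 and 22.0 to 23.3 FPKM. Of 5 macrophage markers Cd68 alone reached 1 FPKM, at 77.0 to 444 FPKM in controls and 242 to 260 in treated cells, Csf1r stood at 0 to 0.0819 and 0.196 to 0.306, and Adgre1 and Itgam were at 0 in all libraries. The part of these differences in the results below was not tested, and in bulk samples fewer cells of a type and less RNA per cell cannot be told apart.

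In treated cells the Xiap and Birc3 transcripts were higher and the Birc2 transcript was lower, and none of the caspase genes nor Apaf1 was called. A gene is called here when its limma p, adjusted by the Benjamini-Hochberg method over all genes tested, is under 0.05. The authors scaled the libraries so that a typical gene is level between the groups, and higher and lower are relative to that gene. The background was broad, since 56.1% of all genes tested were called, 27.9% higher and 28.3% lower. Among the 8 genes 3 were called (37.5%), 2 higher and 1 lower. The same 3 genes were those whose treated and control libraries did not overlap, against 67.7% of all genes tested. One of them, Birc3, passed the filter only through its treated libraries, so its separation was fixed in advance. The median log2 fold change of all 8 genes was 0.17, against -0.01 over all genes tested.

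**Figure D1:**
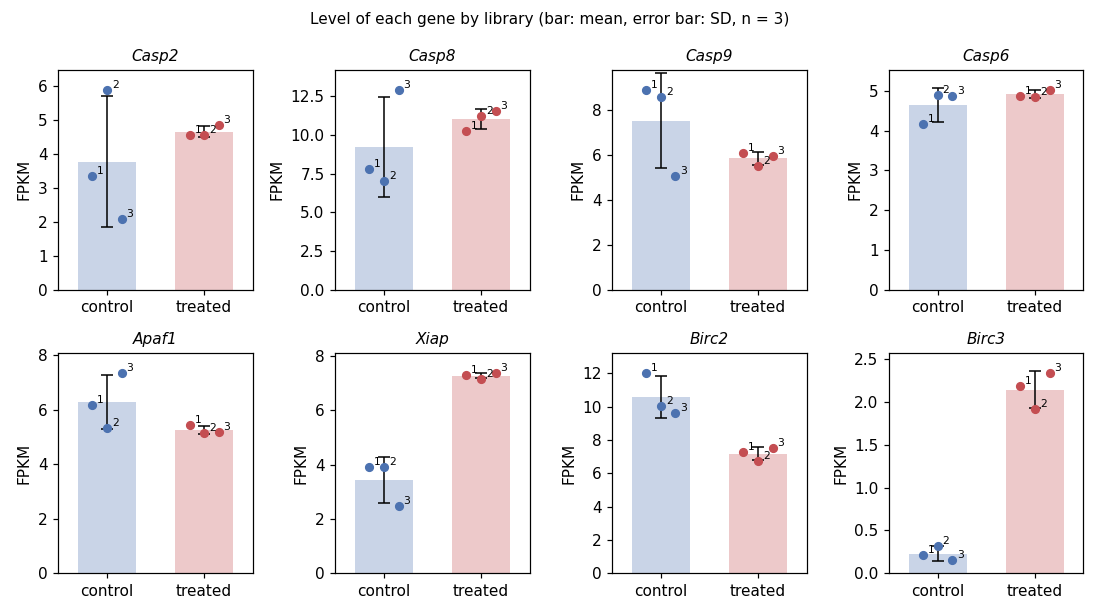
FPKM (vertical axes, each starting at 0 with its own range) of the 8 genes in 3 control and 3 treated libraries, with each library as a point and the mean and SD as a bar. The treated libraries lie above all controls for Xiap and Birc3 and below them for Birc2, and for the other genes the groups overlap.

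Casp8, the initiator caspase of death receptors (chr1:58795374-58847503, plus strand), stood at 7.79, 6.99 and 12.9 FPKM in control 1, 2 and 3. In treated 1, 2 and 3 it stood at 10.3, 11.2 and 11.5 FPKM. Control 3 was the highest of the 6 libraries and the other controls were the lowest, so the groups overlapped. The difference was not called (log2 fold change 0.27 ± 0.22 SE, 95% interval -0.26 to 0.81, limma adjusted p = 0.327). Without control 3 it was called, at a log2 fold change of 0.52 (limma adjusted p = 0.00429). Leaving out any other single library gave no call, at 0.12 (without control 2) to 0.32 (without treated 1). Casp9, the initiator caspase of the apoptosome (chr4:141793612-141815976, plus strand), had the mirror arrangement. It stood at 8.89, 8.59 and 5.07 FPKM in controls and at 6.08, 5.52 and 5.93 FPKM in treated cells, with control 3 the lowest library. Its log2 fold change was -0.28 ± 0.21 SE (95% interval -0.78 to 0.22, limma adjusted p = 0.280). Without control 3 it was -0.51 and called (limma adjusted p = 0.00273). Leaving out any other single library gave no call for Casp9, at -0.31 (without treated 1) to -0.16 (without control 1). Exons of Casp9 overlap those of Ctrc and Cela2a on the opposite strand over 188 of 5197 bp, and reads there cannot be assigned without a stated strand setting. Within each library the ratio of Casp8 to Casp9 FPKM, which no scaling between libraries can change, was 0.876, 0.814 and 2.55 in controls and 1.69, 2.03 and 1.94 in treated cells. Casp8 thus exceeded Casp9 in control 3 and all treated libraries, and lay below it in control 1 and 2.

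Casp2, an initiator caspase activated on a platform formed by the Pidd1 and Cradd products (chr6:42264985-42282508, plus strand), was the most variable of the genes in controls. It stood at 3.35, 5.89 and 2.08 FPKM in controls and at 4.57, 4.55 and 4.85 FPKM in treated cells. All treated libraries fell between control 1 and control 2. The difference was not called (log2 fold change 0.32 ± 0.28 SE, 95% interval -0.37 to 1.01, limma adjusted p = 0.366). Without control 2 it was called at 0.63 (limma adjusted p = 0.020). Leaving out any other single library gave no call, at 0.05 (without control 3) to 0.34 (without treated 2). Neither gene of its platform passed the filter, and both are given here after their values were seen. Pidd1 had 5, 11 and 0 reads in controls and 117, 133 and 100 in treated cells. These are 0.0353, 0.0766 and 0 FPKM in controls and 0.575, 0.665 and 0.499 in treated cells. Cradd had 22, 39 and 40 reads in controls and 61, 110 and 89 in treated cells, and its FPKM overlapped between the groups.

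Casp6, an effector caspase that cuts lamins (chr3:129901425-129914103, plus strand), was the gene with the least difference. It stood at 4.15, 4.89 and 4.88 FPKM in controls and at 4.86, 4.85 and 5.03 FPKM in treated cells. Only control 1 lay clearly apart from the other 5 libraries. The 95% interval of its log2 fold change, -0.18 to 0.32 around 0.07, leaves room for small differences either way (limma adjusted p = 0.580). Apaf1 (chr10:90989311-91082770, minus strand) stood at 6.17, 5.33 and 7.32 FPKM in controls and at 5.43, 5.15 and 5.19 FPKM in treated cells. Treated 1 lay above control 2, which was the one point of overlap. Its log2 fold change was -0.21 ± 0.13 SE (95% interval -0.52 to 0.10, limma adjusted p = 0.207). With a trend on length, GC content and level removed it was called at -0.43 (limma adjusted p = 0.0402), and when libraries were scaled by size alone it was called in the opposite direction, at 0.43 (limma adjusted p = 0.0104). The summed FPKM of the 4 caspase genes was 24.2, 26.4 and 24.9 in controls and 25.8, 26.1 and 27.3 in treated cells. Under the authors' scaling, differences between single genes thus left the sum within a narrow range. The sum depends on that scaling. With libraries scaled by size alone, the log2 fold changes of the 4 genes were 0.36 to 0.95. The sum was then higher in every treated library than in every control.

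Birc3, which encodes a ubiquitin ligase of the TNF receptor complex (chr9:7848699-7873186, minus strand), was scarce in controls. It stood at 0.211, 0.321 and 0.153 FPKM in controls, on 33, 51 and 18 reads, and at 2.19, 1.91 and 2.33 FPKM in treated cells, on 492, 423 and 516 reads. Every treated library was several times above the highest control. The mean went from 0.228 ± 0.0853 to 2.14 ± 0.212 FPKM (SD, n = 3), which is 9.38-fold. On the log2(FPKM + 1) scale, which understates changes of scarce genes, the difference was 1.35 ± 0.10 SE (95% interval 1.11 to 1.60, limma adjusted p = 0.000295). Birc3 passed the filter only through its treated libraries, and a gene that passes in this way has to differ. Genes in the same decile of mean level had a median log2 fold change of 0.52. Of its 31-base stretches, 11.6% also occur in other genes, most often in the pseudogene Gm7019, so a share of its reads could have been placed elsewhere.

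Xiap, whose product binds and blocks active caspases (chrX:42059679-42109656, plus strand), stood at 3.93, 3.92 and 2.47 FPKM in controls, on 1164, 1178 and 548 reads. In treated cells it stood at 7.30, 7.16 and 7.35 FPKM, on 3108, 2996 and 3078 reads. The treated libraries lay close together, and all were well above the controls. The mean rose 2.11-fold, from 3.44 ± 0.841 to 7.27 ± 0.0986 FPKM (SD, n = 3), with a log2 fold change of 0.92 ± 0.16 SE (95% interval 0.52 to 1.31, limma adjusted p = 0.00426). It was called under 21 of 21 alternatives, at log2 fold changes of 0.53 to 1.53. With the filter at 5 FPKM it passed only through its treated libraries and had to differ, so that call says nothing of stability. Each left-out library enters such counts both with the filter applied again and with the same genes tested. Genes in its decile of mean level had a median log2 fold change of 0.19.

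Birc2, the second cIAP gene (chr9:7818227-7837064, minus strand), stood at 11.98, 10.1 and 9.63 FPKM in controls and at 7.29, 6.73 and 7.52 FPKM in treated cells. Every treated library was below every control. The mean was 1.47-fold lower, at 7.18 ± 0.405 against 10.6 ± 1.25 FPKM (SD, n = 3), with a log2 fold change of -0.49 ± 0.12 SE (95% interval -0.78 to -0.21, limma adjusted p = 0.0134). With the filter applied again, the call was lost without treated 1, 2 or 3 (limma adjusted p = 0.0574, 0.0708 and 0.0510). With the same genes tested, it was kept without treated 3 (limma adjusted p = 0.0486) and lost without treated 1 or 2. When libraries were scaled by size alone the sign turned, to 0.18 (limma adjusted p = 0.313). Under that scaling the median of all genes was 0.60, so Birc2 lay 0.42 below the median gene. Birc2 and Birc3 are neighbours on the same strand of chromosome 9, with 11634 bp and 0 annotated genes between them, and they differed between groups in opposite directions under the authors' scaling.

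**Figure D2:**
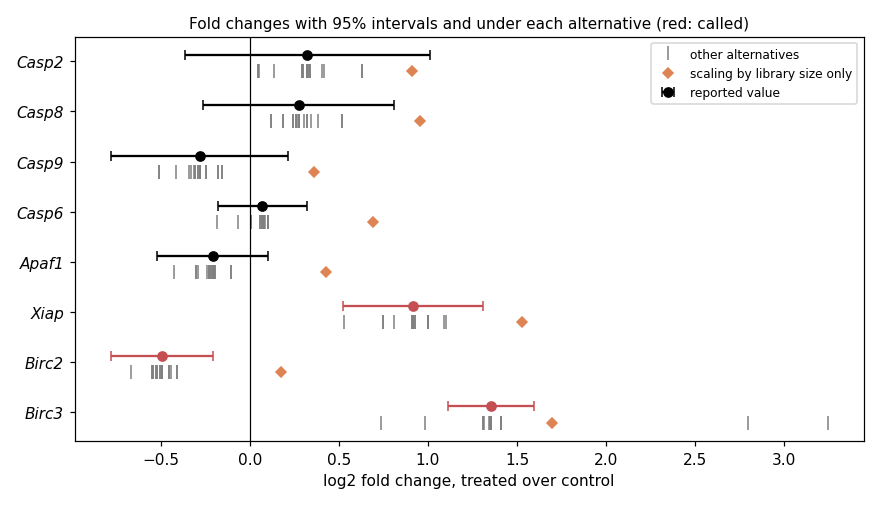
Log2 fold change, treated over control, of the 8 genes (horizontal axis, on the log2(FPKM + 1) scale) with the 95% interval as a bar, the called genes in red, and the values under each alternative as ticks, or as a diamond for scaling by library size. All values of Xiap and Birc3 lie above 0, and the Birc2 value with scaling by library size, 0.18, lies on the other side of 0 from its other values.

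The promoter sequences of the 3 IAP genes are shown because these genes moved in different directions and because Birc3 is a textbook target of NF-kB. Sequences are from RefSeq on GRCm38.p6, written 5′ to 3′ on the gene's strand, from 250 to 42 bases before a transcript start, 209 bases each. Capitals mark a match to a kappa-B core, taken here as GGGA and CC separated by any 4 bases, on either strand. For Birc3 the stretch is chr9:7873212-7873420 (minus strand), for Xiap chrX:42068148-42068356 (plus strand, 1 of its starts) and for Birc2 chr9:7837099-7837307 (minus strand, 1 of its starts).
Birc3: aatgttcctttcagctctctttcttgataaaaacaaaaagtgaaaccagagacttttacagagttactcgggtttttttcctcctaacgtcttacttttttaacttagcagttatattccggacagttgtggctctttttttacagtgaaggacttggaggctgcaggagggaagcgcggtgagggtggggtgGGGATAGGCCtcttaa
Xiap: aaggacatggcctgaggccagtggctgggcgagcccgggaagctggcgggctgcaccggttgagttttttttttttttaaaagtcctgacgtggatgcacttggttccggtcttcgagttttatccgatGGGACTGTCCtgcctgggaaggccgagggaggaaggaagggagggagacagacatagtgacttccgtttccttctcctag
Birc2: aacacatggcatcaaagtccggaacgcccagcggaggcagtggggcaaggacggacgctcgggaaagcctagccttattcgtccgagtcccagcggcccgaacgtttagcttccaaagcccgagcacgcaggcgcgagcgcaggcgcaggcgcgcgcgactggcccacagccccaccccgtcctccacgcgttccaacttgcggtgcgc
The match in the Birc3 promoter, GGGATAGGCC, lies 57 to 48 bases before the start, and the match in the Xiap promoter, GGGACTGTCC, lies 121 to 112 bases before it. The Xiap stretch shown is the only one of its windows with a match, and no Birc2 window held one. Windows of 250 bases before a start were found for 8 of 8 genes, 11 windows in all, and 2 of them held a kappa-B core, against 17.6% of 32817 windows of all genes. The antioxidant response element core TGACNNNGC was in 0 of 11 windows, against 10.2% of all windows. Of the E2F motifs, TTTCCCGC was in 1 window, that of Casp2, against 0.893% of all windows, and TTTGGCGC was in 0, against 0.417%. These shares describe letters in a window, both strands read, and do not show that a factor binds.

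Because the 3 IAP genes moved apart, their proportions within each library differed between the groups, and such proportions do not depend on the scaling between libraries. Birc2 made up 74.3, 70.3 and 78.6% of the summed FPKM of the 3 genes in controls and 43.4, 42.6 and 43.7% in treated cells. Xiap made up 24.4, 27.4 and 20.1% in controls and 43.5, 45.3 and 42.7% in treated cells. Birc3 made up 1.31, 2.24 and 1.25% in controls and 13.0, 12.1 and 13.5% in treated cells. By FPKM, controls thus held mainly Birc2 transcript among the 3, whereas treated cells held nearly equal levels of Xiap and Birc2. The ratio of Birc2 to Birc3 was 56.9, 31.3 and 62.8 in controls and 3.33, 3.52 and 3.23 in treated cells. The ratio of Birc2 to Xiap was 3.05, 2.56 and 3.90 in controls and 0.998, 0.941 and 1.02 in treated cells, with no overlap in either ratio. The summed FPKM of the 3 genes was 16.1, 14.3 and 12.3 in controls and 16.8, 15.8 and 17.2 in treated cells. Under the authors' scaling this is a smaller contrast than that of any single IAP gene. Unlike the shares, the sum depends on the scaling between libraries. With libraries scaled by size alone, Xiap, Birc2 and Birc3 had log2 fold changes of 1.53, 0.18 and 1.70. The contrast of the sum then exceeded that of Birc2. No test was made of these shares and sums.

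**Figure D3:**
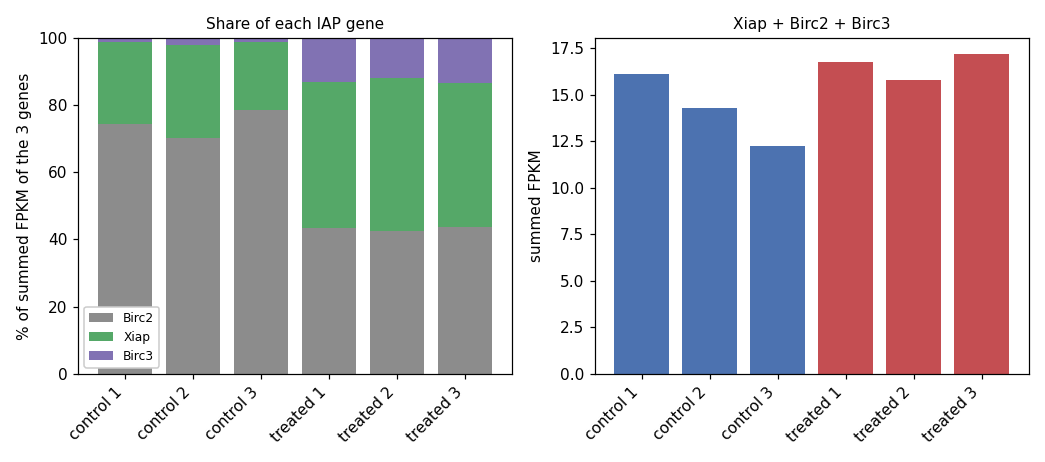
Share of Xiap, Birc2 and Birc3 in their summed FPKM (left, percent) and the summed FPKM itself (right), for each of the 6 libraries. Birc2 holds 70.3% or more in each control and 43.7% or less in each treated library.

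The order of the 8 genes by FPKM also differed. FPKM is per length, and comparing genes by it rests on the exon lengths used, whose annotation is not stated. In controls Birc2 had the highest mean, at 10.6 FPKM, followed by Casp8 at 9.23, Casp9 at 7.51 and Apaf1 at 6.27. Each of these overlapped the next in its libraries. Casp6 at 4.64, Casp2 at 3.77 and Xiap at 3.44 followed, where Casp2 overlapped both others while Casp6 lay above Xiap in every library, and Birc3 was the lowest by far. In treated cells Casp8 had the highest mean, at 11.0 FPKM. Xiap at 7.27 and Birc2 at 7.18 came next and overlapped each other, followed by Casp9 at 5.84, Apaf1 at 5.25, the overlapping pair Casp6 at 4.91 and Casp2 at 4.66, and Birc3 at 2.14. Xiap moved from below Apaf1, Casp6 and Casp9 in each control library to above them in each treated library. The coefficient of variation of the 8 genes was 9.06 to 51.5% in controls and 1.36 to 9.91% in treated cells.

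Set among all genes tested, the called genes lay inside the range of the others. The log2 fold change of Birc3 was at percentile 95.6, that of Xiap at 87.5 and that of Birc2 at 29.5. Genes in the deciles of mean level that hold the 7 members other than Birc3 had median log2 fold changes between -0.08 and 0.27, and the 5 members not called had fold changes between -0.28 and 0.32.

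**Figure D4:**
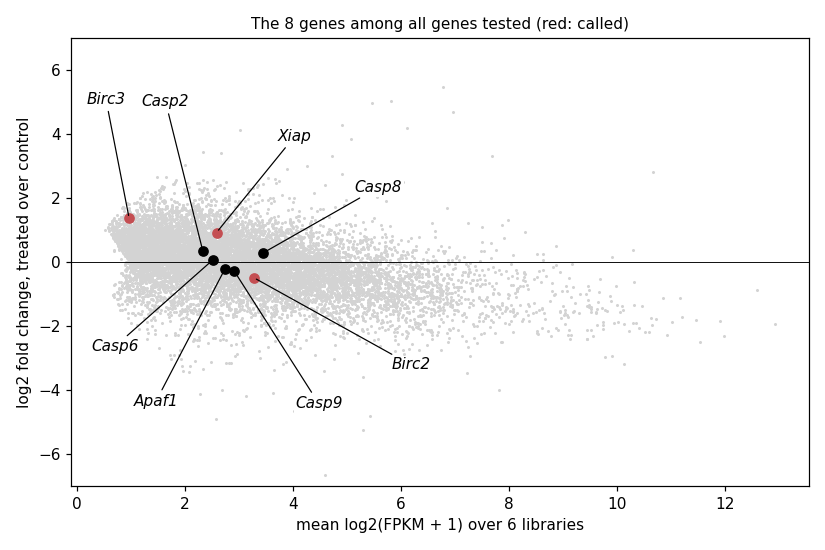
Log2 fold change, treated over control, against mean log2(FPKM + 1) for the 11118 genes tested (grey), with the 8 genes in red where called and black where not. Birc3 and Xiap lie in the upper part of the cloud and the other 6 lie between -0.49 and 0.32.

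Of a list of 52 other genes of the pathway, 35 were tested, 7 were called higher, 5 lower and 23 not called. Of the 7, Ripk1, Xaf1 and Dffb (the last named after its values were seen) passed the filter only through their treated libraries and had to differ. That is 34.3% called, against 56.1% of all genes tested, with a median log2 fold change of 0.07. Of 2 tested genes for other caspases, 1 was higher and 0 lower. Casp4, which encodes an inflammatory caspase that senses bacterial lipopolysaccharide, stood at 1.18, 1.96 and 0.472 FPKM in controls and 2.59, 2.23 and 3.13 in treated cells (log2 fold change 0.78, limma adjusted p = 0.0433). Its call was lost under 14 of 20 alternatives, among them leaving out control 1 and treated 1, 2 or 3 (limma adjusted p between 0.0836 and 0.143).

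Of 11 genes for death receptors and their adaptors, 5 were tested and 1 was higher. Ripk1, which encodes the kinase that the cIAPs ubiquitinate at the TNF receptor, stood at 0.9996, 0.850 and 0.987 FPKM in controls and 3.82, 3.93 and 4.39 in treated cells (log2 fold change 1.37, limma adjusted p = 0.000274). All its controls were under 1 FPKM, so it too passed the filter only through its treated libraries and had to differ. Fadd, the adaptor that recruits the Casp8 product and named here after its values were seen, was below the filter. It had 5, 35 and 8 reads in controls and 151, 154 and 116 in treated cells. These are 0.0409, 0.283 and 0.0875 FPKM in controls and 0.861, 0.893 and 0.672 in treated cells. Cflar, named in the same way, encodes a competitor of the Casp8 product and was not called (log2 fold change -0.16, limma adjusted p = 0.574). Of 9 tested genes for apoptosome partners and proteins released from mitochondria, 0 were higher and 1 was lower. That gene was Ptma, whose product prothymosin alpha restrains apoptosome assembly. It stood at 1641, 1040 and 2640 FPKM in controls and 418, 475 and 457 in treated cells (log2 fold change -1.88, limma adjusted p = 0.00485), and the call was lost with quantile normalization (-0.33) and with the trend removed (-0.56). Cycs, which encodes cytochrome c and was likewise named after its values were seen, was not called (log2 fold change 0.33, limma adjusted p = 0.0871).

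Of 4 tested IAP antagonists and partners, 2 were higher. Xaf1, a partner of the Xiap product, stood at 0.361, 0.504 and 0.546 FPKM in controls and 1.51, 1.52 and 1.91 in treated cells (log2 fold change 0.85, limma adjusted p = 0.00119). Its call was lost with the trend removed (0.24, limma adjusted p = 0.0945). Of 2 tested other genes with a BIR domain, the domain that defines the IAP family, Birc5 was lower. Birc5 encodes survivin, which also serves in mitosis, and stood at 23.0, 15.1 and 28.5 FPKM in controls and 12.2, 12.4 and 12.6 in treated cells (log2 fold change -0.75, limma adjusted p = 0.0293). Its call was lost under 12 of 21 alternatives, among them leaving out control 1 and treated 1, 2 or 3 (limma adjusted p between 0.0870 and 0.0947). Of 6 tested TRAF and noncanonical NF-kB partners of the cIAPs, 1 was higher and 2 were lower. Traf2, the adaptor that binds the cIAPs, stood at 2.18, 2.42 and 2.52 FPKM in controls and 5.91, 5.89 and 5.67 in treated cells (log2 fold change 1.02, limma adjusted p = 0.000508). Nfkb2, which encodes the precursor cut in the noncanonical pathway, stood at 40.5, 34.6 and 39.9 FPKM in controls and 18.7, 18.0 and 18.3 in treated cells (log2 fold change -1.02, limma adjusted p = 0.000757). Relb, named after its values were seen, encodes the partner of the cut Nfkb2 product and stood at 9.11, 8.13 and 8.00 FPKM in controls and 6.54, 6.80 and 6.68 in treated cells (log2 fold change -0.29, limma adjusted p = 0.0447), a direction that turned to 0.37 when libraries were scaled by size alone. Under the same scaling Traf2 (1.60) and Nfkb2 (-0.30) kept their directions and calls.

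Of 8 tested caspase substrates, 2 were higher and 1 was lower. Rock1, a kinase whose cleavage drives membrane blebbing, stood at 1.78, 1.88 and 1.31 FPKM in controls and 3.54, 3.38 and 3.40 in treated cells (log2 fold change 0.75, limma adjusted p = 0.00269), and it was not called with the trend removed (0.24, limma adjusted p = 0.131). Acin1, which encodes acinus, stood at 12.5, 15.4 and 9.31 FPKM in controls and 7.81, 7.49 and 6.78 in treated cells (log2 fold change -0.66, limma adjusted p = 0.0237), and scaled by library size alone its value was 0.013. Its call was lost without control 1 and without treated 1, 2 or 3, at limma adjusted p-values of 0.0665 to 0.0911. Likeness to a member was measured over the 6 libraries, as the mean absolute difference of log2(FPKM + 1) values centred on each gene's own mean. The closest pairs with a pathway gene were Apaf1 with Parp1 at 0.0397, Casp6 with Traf1 at 0.0773 and Xiap with Rock1 at 0.0880. Parp1 encodes a DNA repair enzyme that caspases cut, and Traf1 encodes an adaptor of the TNF receptor family.

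**Figure D5:**
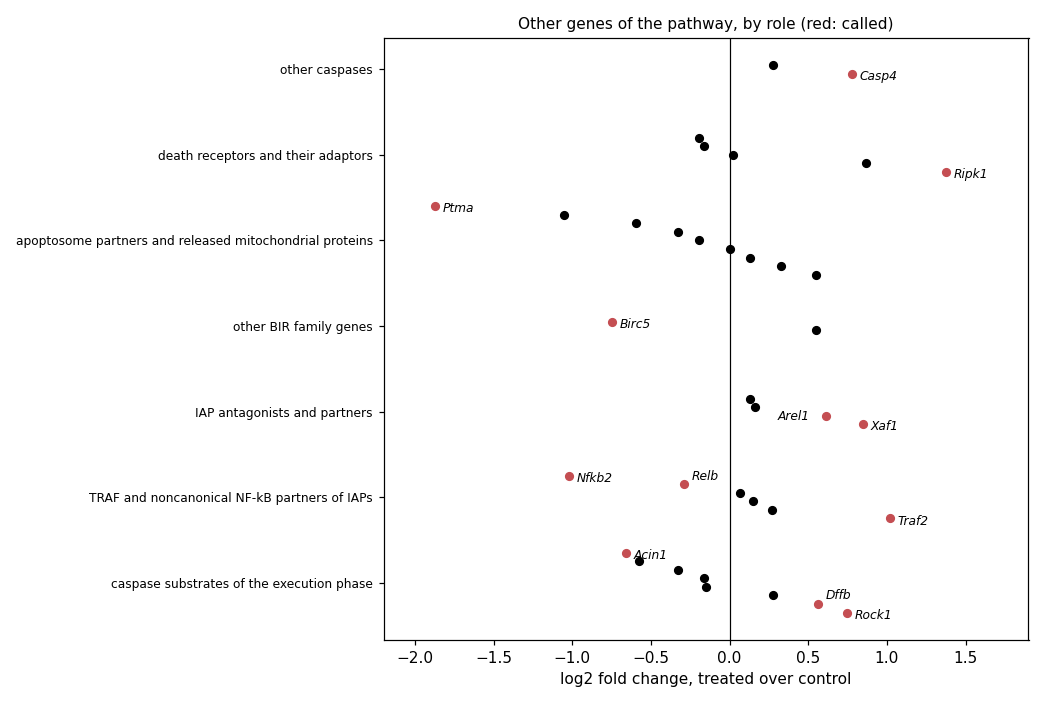
Log2 fold change, treated over control, of the tested pathway genes other than the 8, 1 point per gene in rows by role, with called genes in red and labelled. Called genes lie on both sides of 0, from Ptma at -1.88 to Ripk1 at 1.37.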

How the data were processed

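Poly-T selected RNA was fragmented, copied with random hexamers, amplified by PCR and sequenced in read pairs, per the labels' protocols, with 1 batch label for all samples. The authors deposited 1 FPKM value per gene and library, per the file headers. Not given in the sources used here are the aligner, counter, build, annotation and strand setting. Median-of-ratios factors of the FPKM are equal in all libraries, so the authors scaled between libraries and not by total. Symbols (52073 of 56748 identifiers), lengths and coordinates were taken from GENCODE M21 on GRCm38, possibly another annotation than the authors'. Reads were worked back from FPKM and exon length, and 92.3 to 93.4% of values under 200 reads were whole, with a tolerance of 0.02. No molecular identifiers are named, so reads copied by PCR are not independent and read numbers bear on counting error only.

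Genes that reached 1 FPKM in at least 3 of 6 libraries were tested on log2(FPKM + 1) with limma 3.58.1 (R 4.3.3, trended prior variance, group as the only term), with Benjamini-Hochberg adjustment over all 11118. The procedure was tested on simulated data. The genes, the pathway list and the rules were chosen with earlier results of these data known. Named pathway genes are, for each role, the called rising and falling gene with the smallest p, and others are marked where named. Some genes first listed are not reported here. Alternatives were another pseudocount and filter, other scalings, a trend on length, GC content and level removed, voom on recovered reads, a replicate block and leaving out each library. Libraries were left out with the filter applied again and also with the same genes tested. Both fits give a gene the same fold change and are counted separately, so counts of alternatives are not counts of independent checks.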

Additional observations from a re-analysis of the deposited data

How the results depend on the processing

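Xiap was called higher under 21 of 21 alternatives while Birc2 was called lower under 14 of 21, and the cause was not tested. Birc3 passed the filter only through its treated libraries and had to differ, so its calls under the filter say nothing of stability, and with no filter its limma adjusted p was 0.00221. Raising the filter to 5 FPKM left 6687 genes tested, with 1385 higher (20.7%) and 2516 lower (37.6%). Casp2, Casp6 and Birc3 were then not tested, 1 of the 8 genes was higher, and 7 pathway genes were called. The higher gene, Xiap, passed that filter only through its treated libraries and had to differ. Traf2 and Arel1 (the last named after its values were seen) passed it in the same way. Scaling by library size alone gave 6032 genes higher (54.3% of those tested) and 1149 lower (10.3%), with 84.0% of calls higher, against 49.7%. In that setting 6 of the 8 genes were higher and 0 lower, and 27 pathway genes were called. Under that scaling the median of all genes was 0.60, and log2 fold changes changed sign for Casp9 (0.36), Apaf1 (0.43), Birc2 (0.18), Acin1 (0.013) and Relb (0.37). Casp6 turned to -0.069 with quantile normalization and to -0.18 with the trend removed, where 2 of the 8 genes were lower. The replicate numbers share only a number, since same-numbered libraries had correlated deviations of -0.054, -0.111 and -0.140 and 0 libraries correlated best with their own number. With the replicate block 2618 genes were higher and 2669 lower, and 0 of the 8 genes were lower, with Birc2 at a limma adjusted p of 0.0510. Leaving out 1 library gave 1542 to 3637 genes higher and 2011 to 3585 lower, 1 to 3 of the 8 genes higher, 0 to 2 lower, and 5 to 19 pathway genes called. Only 1 of the 8 genes was higher without a treated library because Birc3 then no longer passed the filter and was not tested. With the same genes tested, a choice made after seeing the data, 2279 to 3634 genes and 2 to 3 of the 8 genes were higher. In those fits 2 of the 8 genes were lower without control 3 and 0 without treated 1 or treated 2, and 19 pathway genes were called without control 2. Depth limits Birc3 in controls, which rests on 18 to 51 reads per library.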
